A study of Mus musculus with 20 samples.

Results

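The cytosolic ribosome is built from ribosomal RNA and a fixed set of proteins of its large and small subunits, each encoded in the nucleus. The genes were taken by symbol: protein-coding mouse genes named Rpl or Rps with a number, together with Rplp0, Rplp1, Rplp2 and Rpsa, leaving out the Rps6k kinases, pseudogenes and the mitochondrial Mrp genes. This gave 84 genes of the 56239 in the count table, 52 of the large and 32 of the small subunit. Of these, 77 (46 large, 31 small) had at least 10 counts in at least 2 libraries and were tested among 16601 genes.

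B3 is a mouse pre-B cell line, and where 2 values are given for a time point, replicate 1 comes first. All cells carried the retroviral construct Ikaros-ERt2, IKZF1 fused to a tamoxifen-responsive receptor domain, and had been sorted for GFP, so there was no line without the construct and the same cells stand in every group. The 2 libraries at 0 h had no treatment, and 18 libraries came from 0.5, 1, 2, 6, 12, 15, 18, 21 and 24 h (2 each) after 500 nM 4-hydroxytamoxifen (4-OHT), which moves the fusion protein into the nucleus. No library with 4-OHT but without the construct, and no untreated library at a later time, was analysed here, so the effect of IKZF1, of 4-OHT and of time in culture cannot be told apart. RNA was taken from the chromatin pellet of isolated nuclei, which enriches for nascent transcripts, and the counts include intronic reads.

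Ribosomal proteins are made in step with ribosomal RNA, and their genes are among the most actively transcribed in dividing cells. Most of their promoters start transcription within a run of pyrimidines, which gives the mRNA the 5′ terminal oligopyrimidine (TOP) tract through which mTORC1 and LARP1 control translation. Many of these genes carry small nucleolar RNAs (snoRNAs) in their introns, and many have processed pseudogenes elsewhere in the genome. Growth of pre-B cells is driven by the IL-7 receptor and pre-BCR, and IKZF1 is known to end this growth phase.

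Library totals ran from 33296158 to 46868954 counts. Igll1, a known IKZF1 target that encodes a surrogate light chain, fell from 167 and 170 CPM (counts scaled to the library total times edgeR's TMM factor, here and throughout) at 0 h to 1.07 and 0.895 at 24 h. Of 10 pre-B markers 6 were above 1 CPM in every library, with a summed level of 8200 to 16500 CPM, whereas Rag1 and Rag2 were listed at 0 in all 20. The summed markers of T cells (2.03 to 4.25 CPM, mostly Cd5), myeloid cells (0.678 to 2.18), erythroid cells (0.129 to 0.578) and fibroblasts (0 to 0.0467) stayed near 0. Labels and methods do not say whether replicates came from separate cultures, so p-values measure only the spread between these samples, which may be technical.

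The libraries of 12 h and 18 h stood apart from the rest for these genes. The chi-square per degree of freedom between the counts of a time point's libraries was taken over all genes tested, not only this family. It was 8.85 at 12 h, 13.4 at 18 h, 4.28 at 21 h and 2.38 at 24 h. At the other time points it was 1.23 to 1.69. At 12 h, 73 of the 75 genes averaging at least 1 CPM were higher in replicate 1, with a median log2 ratio of 0.29. At 18 h, 71 of 75 were higher in replicate 2, with a median log2 ratio of replicate 1 to 2 of -0.32. Over all 12056 genes at that level the medians were 0.00 and 0.01. Their quartiles were -0.12 and 0.11 at 12 h and -0.12 and 0.17 at 18 h. At 0 h they were -0.05 and 0.04. At 12 h the genes took 0.261% of counts in replicate 1 and 0.216% in replicate 2, and at 18 h 0.179% and 0.217%. The mitochondrial genome mRNAs were higher in replicate 2 at both times (0.0417% and 0.0461%, then 0.046% and 0.0563%), and their part in the differences was not tested. The counts of ribosomal protein genes against 0 h are also given without these 4 libraries, for times other than 12 h and 18 h.

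**Figure D1:**
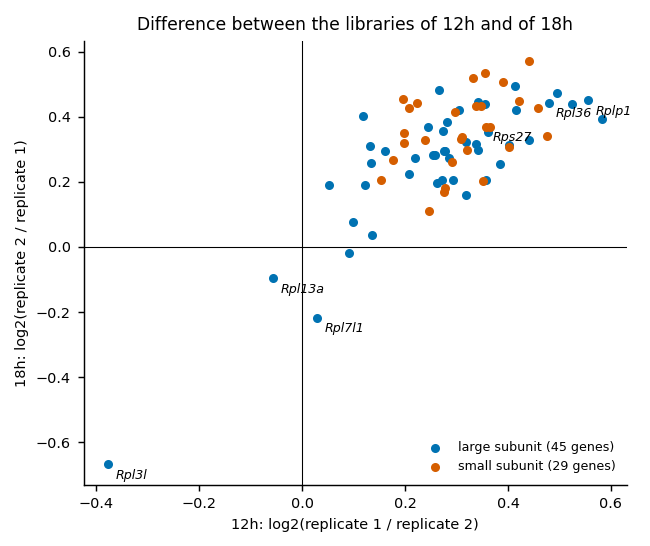
Log2 ratio of CPM between the libraries of 12 h (x axis, replicate 1 over replicate 2) and of 18 h (y axis, replicate 2 over replicate 1), 1 point per ribosomal protein gene. Nearly all points lie in the upper right, and Rpl3l lies at the lower left.

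The replicate differences of both times were compared gene by gene. Across the 75 genes the 12 h and 18 h log2 ratios (taken as in the plot of replicate differences) had a Pearson's r of 0.75 and a Spearman's rho of 0.58, a description, since the genes share the same 4 libraries, and Rpl3l lies far from the rest. Rpl3l, the striated-muscle paralog of Rpl3, went the other way at both times, with 1.78 and 2.32 CPM at 12 h and 3.25 and 2.04 at 18 h.

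To show the sequence around the start of genes that the results turn on, 80 bases of promoter are printed here, 60 before and 20 from the start that RefSeq lists (GRCm38.p6, 5′ to 3′ on the strand of the gene). Capitals mark CTTTCC (a pyrimidine initiator), CCGGAA (the core bound by ETS factors such as GABP) and TATAAA, on either strand. The first 4 genes were among the 4 largest falls at 2 h, 6 h or 24 h, Rps27 and Rps15 were higher at 24 h, and Rpl22l1 is the paralog of Rpl22. Rpl23, Rps19, Rplp2 and Rpl10a were among these falls too, and their stretches, not printed, held no marked letters.
Rps18, chr17:33955646-33955725, minus strand: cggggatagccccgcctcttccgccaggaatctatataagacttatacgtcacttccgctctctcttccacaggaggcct
Rpl13a, chr7:45128726-45128805, minus strand: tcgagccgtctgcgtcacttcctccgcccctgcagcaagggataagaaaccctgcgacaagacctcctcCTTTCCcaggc
Rpl22, chr4:152325666-152325745, plus strand: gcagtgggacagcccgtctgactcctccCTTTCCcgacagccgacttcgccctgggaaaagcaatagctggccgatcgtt
Rps15a, chr7:118116128-118116207, minus strand: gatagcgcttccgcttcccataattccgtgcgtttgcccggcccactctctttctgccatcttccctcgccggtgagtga
Rps27, chr3:90213629-90213708, minus strand: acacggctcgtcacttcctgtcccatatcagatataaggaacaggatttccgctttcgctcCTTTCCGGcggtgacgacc
Rps15, chr10:80292371-80292450, plus strand: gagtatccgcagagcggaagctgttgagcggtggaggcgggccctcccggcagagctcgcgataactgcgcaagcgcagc
Rpl22l1, chr3:28805448-28805527, plus strand: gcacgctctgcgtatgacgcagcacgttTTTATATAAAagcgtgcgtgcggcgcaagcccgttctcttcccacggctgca

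Of the 84 genes, 64 had a promoter entry of 300 bases (250 before and 50 after the start), 57 of them among the genes tested. A C followed by at least 4 pyrimidines lay within 50 bases of the listed start in 56 of these 57 (98.2%), against 79.7% of all 27025 genes with an entry. Within the narrower window from 10 bases before to 15 after the start the shares were 59.6% and 34.4%. CCGGAA was present on either strand of the 300 bases in 32 of 57 (56.1% against 16.7% of all genes), CTTTCC in 28 (49.1% against 29.3%), GGGCGG (the GC box) in 35 (61.4% against 38.2%) and AANATGGC (YY1) in 11 (19.3% against 6.96%). TATAAA was found in 7 (12.3% against 15.7%), CACGTG, the E-box that MYC binds, in 6 (10.5% against 8.09%), and GGGAA, the core of the IKZF1 motif, in 41 (71.9% against 65.5%). The 27025 genes take in genes not tested here, so their shares are not those of genes with like counts. A gene with several entries was counted if any of them matched. These letters may overlap each other, and a match is a description and not a site.

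Median changes by promoter letters are given as a description. Genes with CTTTCC had a median log2 change at 24 h of -1.03 (28 genes) and those without of -0.55, whereas at 2 h the medians were -0.42 and -0.38. For GGGAA the medians at 2 h were -0.40 with and -0.35 without it, and at 24 h -0.75 and -0.48. For CACGTG they were -0.94 with (6 genes) and -0.68 without at 24 h. The 24 h medians ran the other way for TATAAA (-0.36 with, 7 genes, and -0.75 without) and GGGCGG (-0.63 and -0.78). So did those for CCGGAA (-0.65 and -0.75) and AANATGGC (-0.63 and -0.72). No test was run on these medians.

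The ribosomal protein genes took a smaller share of counts from 1 h on. Their share of all counts was 0.34% and 0.339% before treatment, 0.349% and 0.347% after 30 min, 0.293% and 0.292% after 1 h, and then 0.259% and 0.26% by 2 h. By 6 h it was 0.235% and 0.231%, by 15 h 0.194% and 0.19%, by 21 h 0.168% and 0.162%, and by 24 h 0.172% and 0.16%. No library from 1 h on overlapped those of 0 h. Fewer cells of a type and less RNA per cell cannot be told apart in such bulk samples, and a share says nothing of the RNA per cell.

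**Figure D2:**
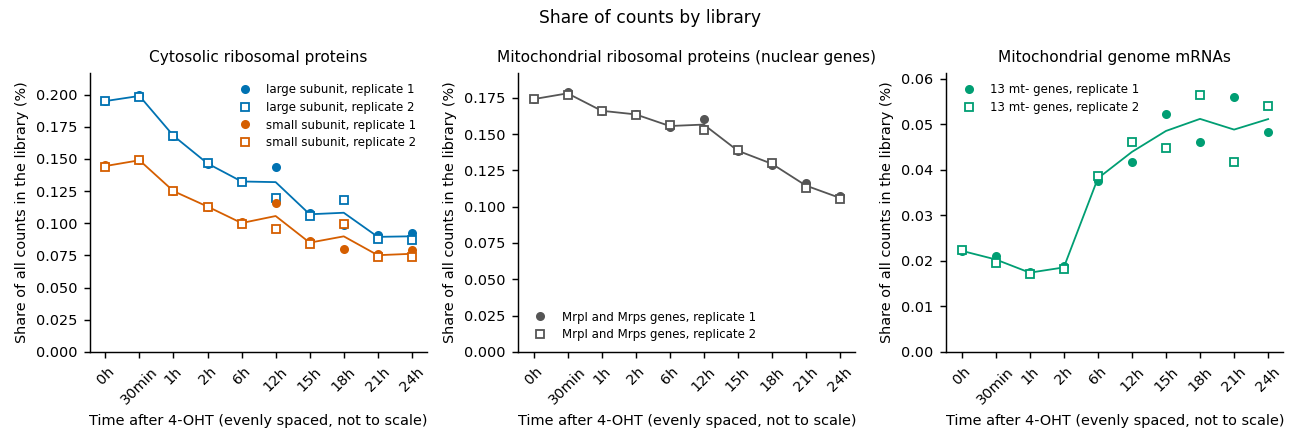
Share of all counts of a library (y axis, percent) by time (x axis, evenly spaced) for cytosolic ribosomal protein genes by subunit, for nuclear genes of mitochondrial ribosomal proteins and for the 13 mitochondrial genome mRNAs (almost all counts from 7). Filled points are replicate 1, open squares replicate 2 and lines their means, and both subunits are lower at 24 h than at 0 h while the mitochondrial genome mRNAs are higher from 6 h on.

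Other RNA moved as well. The mitochondrial genome mRNAs, a sign of cytoplasmic RNA, went from 0.0221% and 0.0223% of counts at 0 h to 0.0188% and 0.0183% by 2 h, 0.0376% and 0.0386% by 6 h, then 0.0483% and 0.0539% at 24 h, and all 7 of them that could be tested were higher at 24 h. Among those not tested, mt-Co2, mt-Co3 and mt-Atp6 had 6, 12 and 2 counts over all libraries, beside 123678 for mt-Co1. This share therefore rests almost wholly on the 7. Malat1 and Neat1, nuclear RNAs, went from 0.417% and 0.419% to 0.376% and 0.383% by 2 h, then 1.4% and 1.35% by 24 h. The 300 ribosomal protein pseudogenes named by symbol held 0.00126% and 0.00116% of counts at 0 h and 0.00105% and 0.000951% at 24 h. Of 13 pseudogenes tested, 5 were lower and 1 was higher at 24 h, against 36.1% and 35.4% of all genes. How reads shared with pseudogenes were counted is not given in the sources used here, and the part of these RNAs in the results was not tested.

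At 30 min no change passed the test. With edgeR's quasi-likelihood test at an adjusted p under 0.01, 0 of 77 genes were lower and 0 higher, against 4.74% and 3.7% of all genes tested. At an unadjusted p under 0.05 the test gave 0 lower and 1 higher (Rpl22), and DESeq2 called 0. Without the 12 h and 18 h libraries 1 was lower (8.56% of all genes) and 2, Rpl22 and Rps15a, were higher. The median log2 change was 0.02 for the ribosomal protein genes and 0.01 for all genes. The highest mean CPM of the course was that of 30 min in 40 of 75 genes and that of 0 h in 21, as a description.

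By 1 h the median had moved to -0.19, and 73 of 77 estimates were below 0. In all 13 genes were called lower, 16.9% of the 77 against 17.1% of all genes, while 0 were called higher against 19.2% (0 also at an unadjusted p under 0.05 and by DESeq2). The 12 h and 18 h libraries enter the shared estimate of the spread, and this count moved with them. Without them 53 genes were lower at 1 h, against 21.1% of all genes. It was 23 without either 12 h library alone and 35 without either 18 h library alone. It was 5 and 3 without 0 h replicate 1 or 2, and 4 and 3 without 1 h replicate 1 or 2. From 30 min to 1 h all 77 estimates were below 0, with a median of -0.21, 15 genes called lower and 0 higher (15.7% and 16.3% of all genes). From 1 h to 2 h 16 were lower and 0 higher (13.3% and 9.07%), with a median of -0.18. Without the 12 h and 18 h libraries these steps gave 57 and 51 genes lower. For steps between times the share of all genes without these libraries was not computed.

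At 2 h the fall covered most of the family and was shallow. Lower expression was called for 57 of 77 genes (74%, against 23.8% of all genes), 35 of 46 large and 22 of 31 small subunit genes, and 0 rose (23.9% of all genes). At an unadjusted p under 0.05, 68 were lower and 0 higher (30.0% and 31.0% of all genes). DESeq2 called 55 lower (21.3% of all genes) and 0 higher. None fell more than 2-fold, against 6.91% of all genes. The median was -0.39 (-0.41 large, -0.38 small) with quartiles of -0.47 and -0.29, while the median of all genes was 0.03 with quartiles of -0.34 and 0.42. Both libraries of 2 h lay below both of 0 h for 73 genes, against 38.7% of all genes, and above for 0. Without the 12 h and 18 h libraries 70 genes were lower, against 27.3% of all genes.

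The falls at 2 h that were largest among genes averaging 1 CPM were in Rpl36, Rpl13a, Rpl23 and Rps18. Rpl36 (chr17:56613416-56614243, plus strand), a small protein of the large subunit, had 10.9 and 11.5 CPM at 0 h and 6.21 and 6.13 at 2 h, a log2 change of -0.86 ± 0.14 (SE, n = 2 and 2, adjusted p = 1.23e-05). The 2 h libraries were the lowest of its time course. Rpl23, a large subunit protein known to bind MDM2, went from 62.9 and 65.3 CPM to 37.8 and 39.2 (-0.73 ± 0.06, adjusted p = 8.83e-10).

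Rps18, at the head of the small subunit, went from 60.6 and 60.9 CPM to 36.8 and 36.3 at 2 h (-0.73 ± 0.07, adjusted p = 2.17e-08). Its libraries did not overlap between the times. Rpl13a, known for its part in the GAIT complex, went from 3.69 and 3.87 CPM to 2.43 and 2.1 (-0.74 ± 0.12, adjusted p = 1.91e-05), a low level for this family. The gene model Gm45713 covers 88.6% of its gene body, and how reads in such an overlap were counted is not given in the sources used here.

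**Figure D3:**
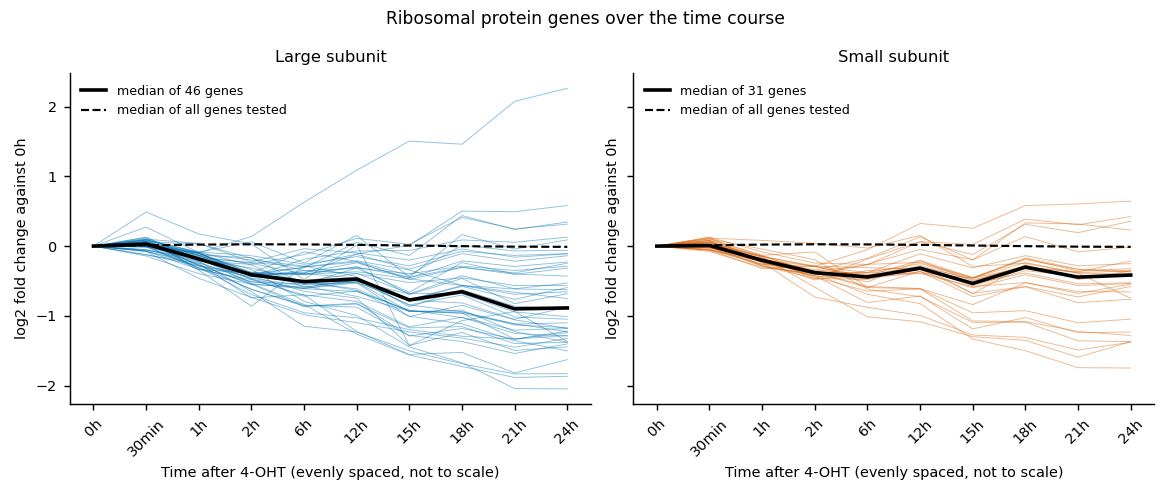
Log2 fold change against 0 h (y axis) by time (x axis, evenly spaced) for tested genes of the large and the small subunit. Thick lines are the medians of all tested genes of each subunit (46 and 31) and dashed lines the median of all genes tested; most genes lie below 0 by 2 h and their range is wider by 24 h, with a single steep rise (Rpl3l).

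At 6 h, 56 genes were lower (27.3% of all genes) and 0 higher (30.0% of all genes, with 1, Rpl3l, at an unadjusted p under 0.05 and 0 by DESeq2), with a median of -0.47 against 0.02 for all genes. A fall of more than 2-fold was called for 2, Rpl22 and Rps19 (9.13% of all genes). Without the 12 h and 18 h libraries 69 were lower (30.3% of all genes) and 1 higher. From 2 h to 6 h 15 genes were lower (14.8% of all genes) and 1, Rpl36, higher (19.6%), with a median of -0.09. These counts were 26 and 7 without the 12 h and 18 h libraries.

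Rpl22, a large subunit protein that binds RNA outside the ribosome as well and is a known tumour suppressor in lymphoid cells, fell most at 6 h. It had 52.7 and 52.3 CPM at 0 h, 58.1 and 56.8 at 30 min, 32.7 and 34.0 at 2 h, then 24.3 and 23.0 by 6 h (-1.15 ± 0.06, adjusted p = 9.58e-13). Rps19, the gene most often mutated in Diamond-Blackfan anaemia, went from 66.6 in each library at 0 h to 33.8 and 32.1 at 6 h (-1.01 ± 0.06, adjusted p = 2.81e-12). Both were already lower at 2 h, with log2 changes of -0.65 and -0.59. Next came Rpl23, with 30.3 and 34.5 CPM at 6 h (-0.98 ± 0.06), and Rplp2, with 21.1 and 19.6 CPM (-0.96 ± 0.07).

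From 12 h to 21 h between 48 and 59 genes were lower than at 0 h. At 12 h, 48 were lower and 2 higher (29.5% and 31.2% of all genes). By 15 h 59 were lower and 1 higher (32.6% and 33.1%), by 18 h 49 and 6 (36.0% and 35.3%), and by 21 h 57 and 3 (36.0% and 35.7%). Medians were -0.37, -0.68, -0.53 and -0.66. Falls beyond 2-fold numbered 7 at 12 h (9.92% of all genes), 20 by 15 h (13.1%), 20 by 18 h (17.6%) and 29 by 21 h (19.4%). The number higher at 18 h was 3 without 0 h replicate 1, 10 without 18 h replicate 1, 2 without 18 h replicate 2 and 3 under library totals. At 12 h 1 was higher when any library other than those of 18 h was left out, and at 21 h 6 were higher without either 18 h library. Without the 4 libraries of 12 h and 18 h, 67 were lower and 2 higher by 15 h, and 62 and 7 by 21 h. Of all genes 34.7% and 37.6% were then lower at these times. From 6 h to 12 h 3 genes were lower and 1 higher (13.5% and 14.0% of all genes), and from 12 h to 15 h 24 and 0 (10.0% and 9.58%). From 15 h to 18 h 1 was lower and 9 higher (16.1% and 13%), and from 18 h to 21 h 2 and 0 (5.31% and 7.1%). All these steps take in a library of 12 h or 18 h. From 21 h to 24 h 0 passed in either direction (4.57% and 4.06% of all genes, with 1 lower and 2 higher at an unadjusted p under 0.05), and without the 12 h and 18 h libraries 0 were lower and 1, Rps19, higher.

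At 24 h the genes were lower on balance, but not as a block. Of 77, 55 were lower (71.4%, against 36.1% of all genes) and 5 higher (6.49%, against 35.4%), and 17 were not called. The median was -0.63 with quartiles of -1.24 and -0.25. For all genes the median was -0.01 with quartiles of -0.86 and 0.86. Large subunit genes had a median of -0.89 (33 of 46 lower, 3 higher) and small subunit genes of -0.42 (22 of 31 lower, 2 higher), a difference that was not tested. Falls beyond 2-fold were called for 29 (20.1% of all genes), 21 large and 8 small, and a rise beyond 2-fold for 1, Rpl3l (20%). Over the whole course 32 genes changed by more than 2-fold at some time, against 51.9% of all genes.

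The counts at 24 h moved with the scaling. Scaling by library totals alone moved the median of all genes by -0.26, and then 64 ribosomal protein genes were lower and 2, Rpl3l and Rps27, higher, with a median of -0.88 beside a median of all genes of -0.27. The same shift was -0.12 at 18 h and -0.23 at 21 h, and changes given here are relative to the TMM scale. Without the 12 h and 18 h libraries 60 were lower (37.8% of all genes) and 8 higher, the added ones higher being Rplp1, Rps21 and Rps29. The number higher was 3 without 0 h replicate 1 and also without 24 h replicate 1.

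**Figure D4:**
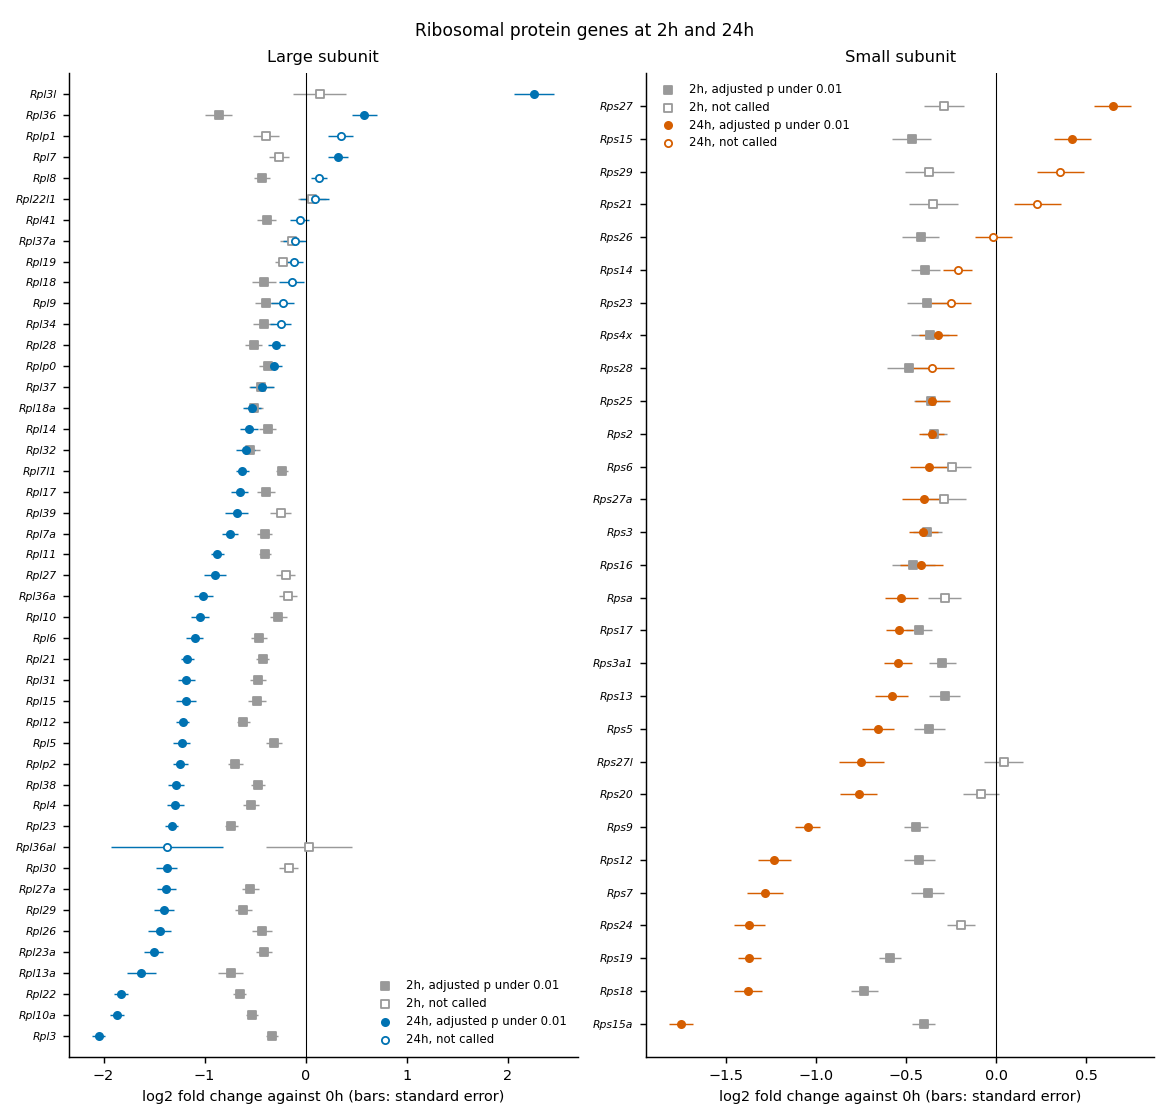
Log2 fold change against 0 h with its standard error (x axis) at 2 h (grey squares) and 24 h (coloured circles) for tested genes, in order of the 24 h value, by subunit. Filled symbols passed an adjusted p under 0.01; at 2 h most genes lie below 0, and at 24 h they run from -2.05 (Rpl3) to 2.26 (Rpl3l) in the large subunit.

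Direct comparison of 24 h with 2 h gave 39 genes lower (32.9% of all genes) and 12 higher (33.5%), with a median of -0.29. Without the 12 h and 18 h libraries it gave 42 and 17, and with library totals 49 and 8. Of the 57 genes lower at 2 h, 32 fell further by 24 h, 19 had no call between these times and 6 rose, among them Rpl36, Rpl41, Rpl8, Rps15 and Rps26. A further 7 genes had no call at 2 h and were lower at 24 h than at 2 h (Rpl27, Rpl30, Rpl36a, Rpl39, Rps20, Rps24 and Rps27l). The names in these groups were listed after their values were seen. Of the 75 genes averaging 1 CPM, lowest mean CPM was at 21 h in 22, at 15 h in 19, at 24 h in 17 and at 2 h in 13.

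The 4 largest falls at 24 h among genes averaging 1 CPM were those of Rpl3, Rpl10a, Rpl22 and Rps15a. Rpl3 (chr15:80077791-80091868, minus strand), which reaches toward the peptidyl transferase centre, was the family's most counted gene here, with 185 and 181 CPM at 0 h, 143 and 146 at 2 h, 106 and 105 by 6 h, 67.3 and 66.9 by 15 h, then 44.4 and 44.0 by 24 h. This left 24.2% of the starting level (log2 change -2.05 ± 0.06, adjusted p = 1.06e-17). No library from 2 h on overlapped 0 h.

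Rpl10a, part of the L1 stalk that moves the outgoing tRNA, had 97.5 and 95.7 CPM at 0 h and 27.0 and 26.0 at 24 h (-1.87 ± 0.07, adjusted p = 8.52e-17). Rpl22 had 15.1 and 14.4 CPM at 24 h (-1.83 ± 0.07, adjusted p = 3.73e-16), so that most of its fall had been made by 6 h. Rps15a, a small subunit protein and the largest fall among the Diamond-Blackfan genes, had 127 and 125 CPM at 0 h, 94.6 and 95.6 at 2 h, then 36.8 and 38.1 by 24 h (-1.75 ± 0.07, adjusted p = 3.85e-16).

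Rises were fewer and smaller, Rpl3l apart. Rps27, a zinc-finger protein of the small subunit, had 16.8 and 17.0 CPM at 0 h, 14.2 and 13.5 at 2 h, then 27.5 and 25.3 by 24 h (0.65 ± 0.10, adjusted p = 8.54e-06). Rpl36 went from its low of 6.21 and 6.13 CPM at 2 h to 16.3 and 17.2 at 24 h, above the 0 h libraries (0.58 ± 0.12, adjusted p = 0.000162) and 1.44 ± 0.13 above 2 h on the log2 scale (adjusted p = 2.33e-09). Rps15, which reaches toward the decoding site, had 24.3 and 25.7 CPM at 0 h, 18.5 and 17.6 at 2 h, then 34.9 and 32.2 by 24 h (0.42 ± 0.10, adjusted p = 0.000879).

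In each of these 3 genes both 2 h libraries lay below 0 h, though the difference of Rps27 did not pass (adjusted p = 0.0299). Under library totals Rps27 was still called higher at 24 h (0.39), whereas Rpl36 (0.32, adjusted p = 0.016) and Rps15 (0.17, adjusted p = 0.141) were not. The 12 genes higher at 24 h than at 2 h had a median gene length of 1563 bp and 1 of them holds a snoRNA, and the 38 lower ones averaging 1 CPM had a median of 4036 bp and 19 hold one. They differed by a median of 0.33 (12 h) and 0.43 (18 h) on the log2 scale between replicates, against 0.27 and 0.27, and the part of this in the result was not tested.

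**Figure D5:**
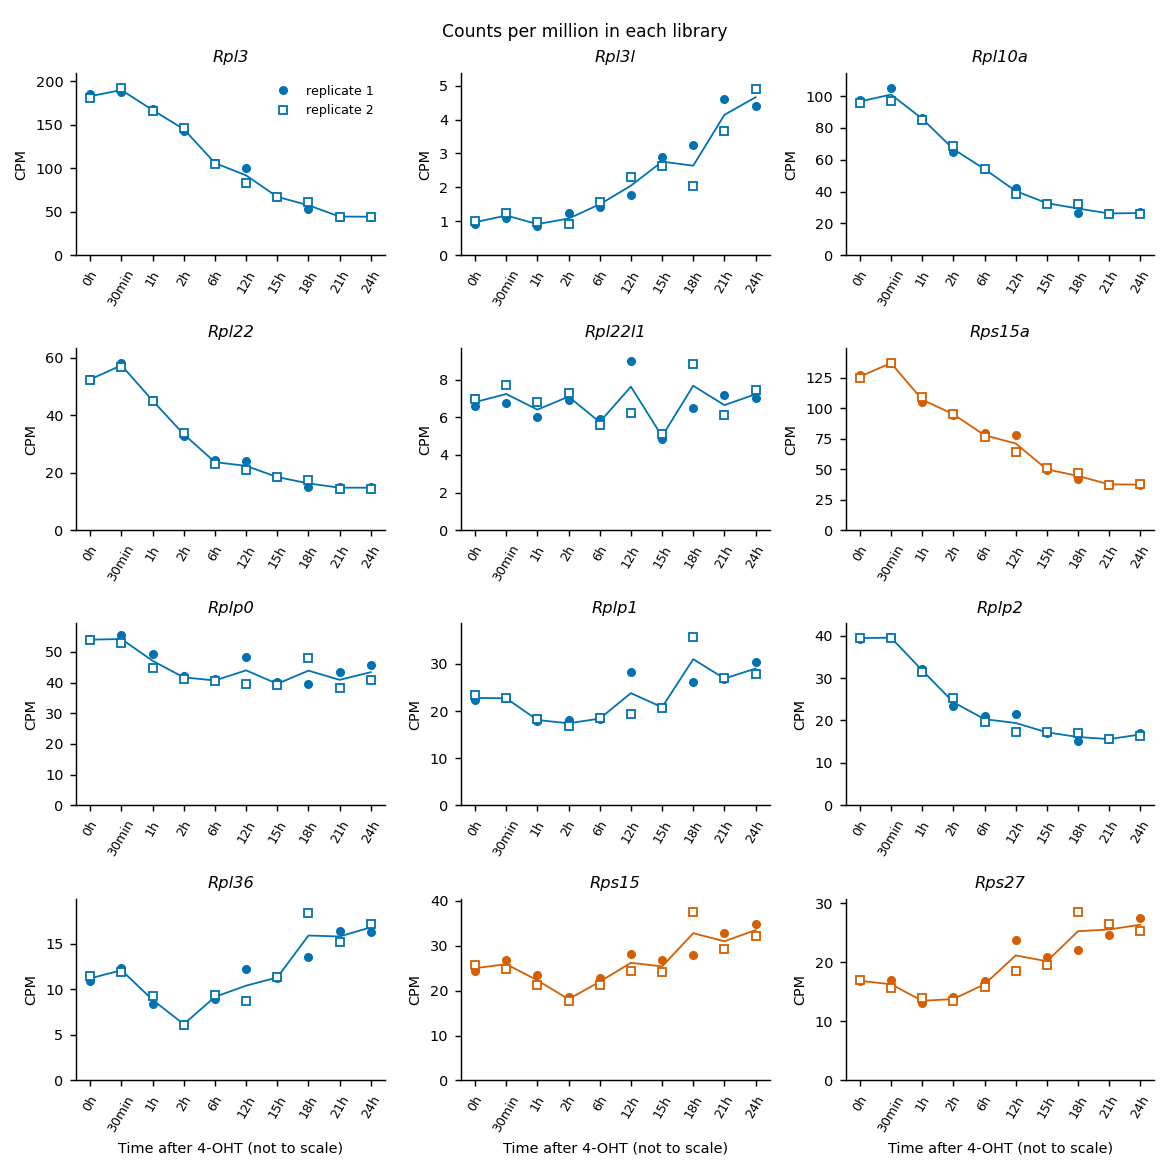
CPM (y axis, each from 0) by time (x axis, evenly spaced) in every library for 12 named genes, filled points replicate 1, open squares replicate 2 and lines the means; blue is large and orange small subunit. Rpl3, Rpl10a, Rpl22, Rps15a and Rplp2 fall over the course, Rpl36 and Rps15 are lowest at 2 h and, like Rps27 and Rpl3l, higher at 24 h than at 0 h.

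The 3 proteins of the P stalk, which recruits the translational GTPases, are all needed, and their genes differed in direction after 2 h. Rplp2 had 39.3 and 39.5 CPM at 0 h, 23.3 and 25.3 at 2 h, then 17.1 and 16.3 by 24 h (-1.24 ± 0.08, adjusted p = 2.21e-12). Rplp0, which anchors the stalk, had 54.3 and 53.8 CPM at 0 h, 42.1 and 41.3 at 2 h, then 45.9 and 41.0 by 24 h (-0.32 ± 0.09, adjusted p = 0.00216), with no call from 2 h to 24 h. Rplp1 had 22.3 and 23.3 CPM at 0 h, 18.1 and 16.8 at 2 h, then 30.3 and 27.8 by 24 h. Its 24 h libraries lay above those of 0 h without passing the test (0.35 ± 0.13, adjusted p = 0.0157), and the rise from 2 h passed (0.74 ± 0.13, adjusted p = 2.93e-05).

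The paralogs are given beside the genes they resemble. Rpl3l (chr17:24727820-24736143, plus strand) had 0.929 and 1.01 CPM at 0 h, 1.42 and 1.57 by 6 h, 2.91 and 2.62 at 15 h, then 4.41 and 4.91 by 24 h, on 40 to 181 counts per library. This was a 4.8-fold rise (log2 change 2.26 ± 0.20, adjusted p = 8.67e-10) over the hours in which Rpl3 fell. Per kb of gene Rpl3l was the least counted of the tested genes at 0 h (0.117 CPM per kb, against 13 for Rpl3).

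Rpl22l1, the paralog whose protein can take the place of Rpl22, had 6.61 and 7.0 CPM at 0 h and 7.01 and 7.46 at 24 h (0.09 ± 0.14, adjusted p = 0.574), while Rpl22 fell. Rps27l, a known p53 target, had 6.0 and 5.4 CPM at 0 h, 5.92 and 5.83 at 2 h, then 3.52 and 3.28 by 24 h (-0.75 ± 0.12, adjusted p = 1.27e-05), while Rps27 rose. Rpl7l1, a nucleolar relative of Rpl7, had 32.1 and 32.5 CPM at 0 h and 20.4 and 21.5 at 24 h (-0.63 ± 0.07, adjusted p = 1.66e-08), while Rpl7 had 47.2 and 47.9 and then 61.0 and 57.4 (0.32 ± 0.10, adjusted p = 0.00654, not called under library totals).

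Rpl36al was below 1 CPM throughout, on 3 to 29 counts per library (0.389 and 0.428 CPM at 0 h, 0.0894 and 0.217 at 24 h, adjusted p = 0.0298), and 92.4% of it is covered by Gm49383. Its relative Rpl36a went from 14.3 and 13.7 to 6.98 and 6.95 CPM (-1.01 ± 0.10, adjusted p = 3.95e-09). Rpl39, whose paralog Rpl39l had no count, went from 19.7 and 19.9 to 12.7 and 12.0 CPM (-0.68 ± 0.11, adjusted p = 1.16e-05). Rpl10l, the testis paralog of Rpl10, had no count in any library either, which at 3 counts allows up to 0.0901 CPM in the shallowest library by its total alone, without the TMM factor. Rpl10 itself went from 68.2 and 67.7 to 34.7 and 31.1 CPM (-1.05 ± 0.09, adjusted p = 4.33e-10).

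Among other genes named by role, Rpsa, the small subunit protein also known as a laminin receptor, went from 91.9 and 89.2 CPM at 0 h to 66.6 and 59.3 at 24 h (-0.53 ± 0.09, adjusted p = 2.97e-05), and at 12 h its libraries were at 79.3 and 64.6. The X-linked gene Rps4x went from 65.1 and 67.3 to 54.7 and 51.2 CPM (-0.32 ± 0.11, adjusted p = 0.00839). Per kb of gene, Rpl10a (37.7 CPM per kb at 0 h), Rps12 (36.6) and Rpl10 (29.2) were the most counted, and Rpl3l and Rpl36al (0.302) were the least. Rps12 fell from 77.5 and 75.9 to 33.1 and 32.2 CPM (-1.23 ± 0.09, adjusted p = 5.84e-11).

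Of the 20 genes linked to Diamond-Blackfan anaemia, an inherited failure of red cell production, 17 were tested. At 2 h 12 were lower and 0 higher (23.8% and 23.9% of all genes), with a median of -0.40. At 24 h 12 were lower and 1, Rps27, higher (36.1% and 35.4% of all genes), with a median of -0.90, running from -1.75 (Rps15a) to 0.65. Of the 77 ribosomal protein genes tested, which include these 17, 74% were lower at 2 h and 71.4% at 24 h.

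Genes that hold snoRNAs had the lower median at 24 h. Of 29 with a snoRNA inside, 28 were lower and 0 higher at 24 h with a median of -1.05, and of 48 without, 27 were lower and 5 higher with a median of -0.36, against 36.1% and 35.4% of all genes. At 2 h the medians were closer, -0.43 and -0.39 (25 of 29 and 32 of 48 lower, against 23.8% of all genes). Across the 75 genes averaging 1 CPM, the log2 change at 24 h had a Spearman's rho of -0.43 with gene length, -0.42 with exon length and 0.07 with the exonic share of the gene, all descriptions over genes that share libraries. At 2 h they were 0.02, -0.01 and 0.04. No test was run on these differences, and whether reads from the snoRNAs were counted for the host is not given in the sources used here.

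Counting left out part of the family. The 7 genes not tested were Rpl13, Rpl35, Rpl35a, Rpl10l and Rpl39l with 0 counts in all libraries, Rpl24 with 1 and Rps10 with 3 counts in total. For the first 3, Rpl24 and Rps10, other gene models together cover 98.1% to 100% of the body (for Rpl35 and Rpl35a on the opposite strand, for Rps10 partly so), whereas nothing overlaps Rpl10l or Rpl39l. Of the 77 tested, 25 overlap another gene apart from snoRNAs. Among the 52 that do not, 36 were lower at 6 h (27.3% of all genes), and 19 changed over the course (51.9% of all genes).

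Genes around the ribosome were taken from fixed lists and read against the same background shares. Of all genes 23.8% were lower and 23.9% higher at 2 h, and 36.1% lower and 35.4% higher at 24 h. Rack1 and Fau, ribosomal proteins outside the Rpl and Rps names, were both lower at 2 h (-0.54 and -0.49), and at 24 h Rack1 was lower (-1.16 ± 0.07) and Fau higher (0.46 ± 0.13). Of 7 genes listed as elongation factors, Eef1e1 included, 7 were lower at 2 h and 6 at 24 h (0 higher), with medians of -0.35 and -1.84. Eif5a, which helps the ribosome through stalling sequences, fell most (-2.36 ± 0.07), followed by Eef1e1 (-2.11) and Eef1g (-2.11).

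Of 13 other genes with TOP mRNAs 10 were lower at 2 h and 11 at 24 h (0 higher), with medians of -0.38 and -1.15, led by Nap1l1 (-2.84), Npm1 (-2.78) and Hnrnpa1 (-1.69). Of 23 initiation factors 18 were lower at 2 h and 22 at 24 h (0 higher), with medians of -0.31 and -1.10 and the largest falls in Eif2b3 (-2.23), Eif4a1 (-1.80) and Eif3b (-1.72). Of 13 genes of mTORC1 and LARP1 control, 5 were lower and 3 higher at 2 h (23.8% and 23.9% of all genes). At 24 h 9 were lower and 1 higher (36.1% and 35.4%). Deptor (-4.37 ± 0.18), an inhibitor of mTOR, Eif4ebp1 (-3.23 ± 0.08), a translation repressor, and Larp1 (-2.15 ± 0.04), which binds TOP mRNAs, fell most, and Rps6kb1, which encodes the S6 kinase, rose (0.46 ± 0.04).

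Of 9 chaperones and importers of ribosomal proteins 4 were lower and 1 higher at 2 h (23.8% and 23.9% of all genes). At 24 h 6 were lower and 1 higher (36.1% and 35.4%), with Grwd1 (-3.42), Ipo5 (-2.82) and Tsr2 (-2.46) falling most and Tnpo1 higher (0.29). Of 5 factors known at ribosomal protein promoters, Myc, Sp1 and Yy1 were lower at 24 h (-3.67, -0.81 and -0.62) and Gabpa higher (0.45). Myc, which encodes a factor known to drive ribosome production, had 63.6 and 62.1 CPM at 0 h and 30.6 and 29.6 by 30 min, when no ribosomal protein gene was called. It had 27.5 and 26.7 CPM at 2 h and 5.55 and 4.4 by 24 h. At 12 h, where replicate 1 was higher for the ribosomal protein genes, Myc had 22.3 and 28.2 CPM. The part of Myc in the changes of these genes was not tested.

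The mitochondrial ribosomal proteins are also encoded in the nucleus. Of their genes 72 were tested. At 2 h 22 were lower and 2 higher (23.8% and 23.9% of all genes). Their median was -0.14, against -0.39 for the cytosolic genes. At 24 h 53 were lower and 6 higher (36.1% and 35.4% of all genes), with a median of -0.60 against -0.63. Mrpl12 (-2.32), Mrps18b (-2.27) and Mrps28 (-2.0) fell most, and Mrpl36 (1.51) and Mrpl1 (1.40) rose most. Their share of counts was 0.174% in each library at 0 h and 0.107% and 0.105% at 24 h. Where the cytosolic genes differed between replicates, it was 0.16% and 0.153% (12 h) and 0.129% and 0.13% (18 h). The difference between both families was not tested.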

How the data were processed

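Chromatin-associated RNA of 20 libraries was analysed. Reads (75 bp, paired-end) were aligned by the authors with STAR inside nf-core/rnaseq to the mm10 build. They deposited raw counts for each gene from featureCounts, with intronic reads and without normalization. The library kit keeps strand, but the strand setting, the annotation release and the handling of shared reads are not given in the sources used here. Counts were analysed with edgeR 4.0.16 (R 4.3.3): a minimum of 10 counts in 2 or more libraries, TMM factors, time as a factor over all 20 libraries in a single fit, glmQLFTest, and Benjamini-Hochberg adjustment over 16601 genes, called at an adjusted p under 0.01, with a stricter call adding a fold above 2. The study used both thresholds together, so the calls by adjusted p alone are wider than its rule. Standard errors are the log2 change divided by the root of F, and the script was tested on simulated data. DESeq2 1.42.0, other scalings, filters and left-out libraries were alternatives. Replicate numbers were not used to pair samples in the main fit. The totals (median 40943260 counts) carry no molecular identifiers, so a floor of 3 counts covers counting error only.

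Gene names, positions and overlaps were taken from GENCODE M21 (GRCm38), promoters from RefSeq. From the symbol rule 7 protein-coding entries with a -ps suffix or named Rps27rt were left out. The members and lists were chosen with earlier results of these data known. Genes named singly were, among those averaging 1 CPM and called, the 4 largest falls and rises at 2 h, 6 h and 24 h, together with the P stalk, paralogs with their counterparts, Rpsa, those most and least counted per kb, and at most 3 per other list in either direction. Some genes are not reported here by name.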

Additional observations from a re-analysis of the deposited data

How the results depend on the processing

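Among alternative values for the counts of ribosomal protein genes called, 104 stayed close to the value given and 15 did not. The rule for close was wide. It took in 0 against 0, and 39 genes lower at 2 h without a library against 57 with all. With a fold above 2 added, genes lower numbered 0 for 2 h, 2 for 6 h and 29 for 24 h, and 1 was higher at 24 h. A choice made after seeing the data took only genes that overlap no other gene but snoRNAs, so fewer genes enter. Among them 36 were lower at 6 h and 19 changed over the course, against 27.3% and 51.9% of all genes. Genes higher at 6 h numbered 1 with no filter on low counts, without the libraries of 12 h and 18 h (also chosen after seeing the data), with only the 4 libraries compared and at an adjusted p under 0.05. Genes higher at 24 h numbered 2 under library totals, and 8 both without the libraries of 12 h and 18 h and with only the 4 libraries compared. The cause was not tested.

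Leaving out in turn each library of the times compared gave 39 to 42 genes lower at 2 h, 46 to 48 for 6 h and 47 to 51 for 24 h. It gave 0 higher for 2 h and 6 h and 3 to 4 for 24 h. Leaving out each of the 20 libraries gave 30 to 32 changed over the course. Across the main fit and all alternatives, scalings included, medians stayed between -0.41 and -0.38 (2 h), -0.50 and -0.41 (6 h) and -0.88 and -0.59 (24 h). The -0.88 was that under library totals, and no direction turned. Same-numbered replicates had a mean correlation of deviations of 0.02 (-0.64 to 0.43 over 45 pairs of time points). Correlations of both signs cancel in this mean, so it cannot decide whether the numbers pair samples. With the replicate block 56, 54 and 53 genes were lower for 2 h, 6 h and 24 h, and 0, 0 and 4 higher. Few or no counts limit mainly Rpl36al and the genes not tested. Other gene models cover most or all of Rpl36al, Rpl13, Rpl35, Rpl35a, Rpl24 and Rps10, and the part of depth in their counts was not tested.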
